A study of Mus musculus with 840 samples.

Results

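The basal and plasticity transcription factors, 9 of the 39154 gene rows in the deposited tables, were followed in mammary cells in which Notch1 had been switched on. They were Trp63, Snai2, Sox9, Sox10, Foxc1, Tead1, Twist2, Zeb1 and Zeb2. They were chosen by name, with earlier results of these data known, and each was found by its Ensembl identifier in all count tables. Single cells were index-sorted by flow cytometry from mammary glands of SMACreERT2/N1ICD and K5CreERT2/N1ICD mice, labelled SMA_NIC and K5_NIC, and sequenced by Smart-seq2, a full-length method without molecular identifiers. All mice carried the Rosa-N1ICD-IRES-nGFP allele, so that tamoxifen, given at 3 weeks of age, made Cre-expressing basal cells produce the active Notch1 intracellular domain together with nuclear GFP. The smooth muscle actin promoter drives Cre in the SMACre line and the keratin 5 promoter in the K5Cre line, and recombination was mosaic, so GFP- cells of the same glands were unrecombined cells. Per the deposited annotation, SMACre cells were taken 1, 3, 4 and 6 weeks after induction and K5Cre cells after 3 weeks.

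Cells came from the basal gate (EpCAM low, CD49f high), the luminal gate (EpCAM high, CD49f low) and an intermediate gate between them, after removal of CD45, Ter119, CD31 and DAPI positive cells. After filtering there were 100 basal GFP+, 120 luminal GFP+, 17 basal GFP-, 12 intermediate GFP- and 39 luminal GFP- cells. Intermediate GFP+ cells numbered 4, 76 and 19 in SMACre mice at 1, 3 and 4 weeks and 63 and 61 on the K5Cre plates G and L. Kept cells held 103081 to 3363298 reads, and their median was 652124. Median depth was 402767 reads in sequencing batch 1, 397250.5 in batch 2 and 1499630 in batch 3. Cells of a plate share their mice, so reads were summed per group within each Cre line and chase time, called a unit, and the unit was the replicate. Levels are given as CPM, the reads of a gene in such a sum scaled to a fixed library total, and the number of mice behind a unit is not given in the sources used here. The summed level of 8 basal gate markers was 4770 to 20680 CPM in the basal GFP+ units, 2025 to 15190 in the intermediate GFP+ units and 72.9 to 1749 in the luminal GFP+ units. The summed level of 10 luminal gate markers was 464 to 873, 803.5 to 3504 and 6589 to 13930 CPM in the same order. The gates were taken from the labels, and for SMACre plates 1 to 4 a list of sorted cells in the study has the intermediate and luminal numbers the other way round. On these plates the GFP+ cells labelled luminal had Elf5 at 17.43 to 102.8 CPM, Kit at 253.8 to 817.5 CPM and Krt5 at 0 to 68.86 CPM, and the GFP+ cells labelled intermediate had Elf5 at 0 to 0.4583 CPM, Kit at 0 to 5.286 CPM and Krt5 at 762.4 to 1828 CPM. In luminal GFP+ cells at 1 week, salivary markers summed to 26200 CPM, of which 99.7% came from 1 cell. Of the 50 basal GFP+ cells at 1 week, 7 held under 10 Epcam reads. The levels and edgeR tests of Zeb1 and Zeb2, which rest on such cells, are given with and without them.

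The mammary epithelium is a bilayer of contractile basal cells and inner luminal cells. Trp63 encodes p63, the factor that maintains the basal state of stratified and glandular epithelia, and Snai2 encodes Slug, a zinc-finger repressor found in basal cells. Sox9 and Sox10 encode HMG-box factors associated with progenitor and luminal progenitor cells, Foxc1 encodes a forkhead factor, and Tead1 encodes a DNA-binding partner of the Hippo pathway effectors YAP and TAZ. Twist2, Zeb1 and Zeb2 encode factors that drive epithelial-to-mesenchymal transition (EMT), in which epithelial cells lose adhesion genes and take on mesenchymal ones. Notch signalling promotes luminal fate in the mammary gland.

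The gene models are given on GRCm38. Trp63 (ENSMUSG00000022510) lies on chromosome 16 from 25683763 to 25892102, plus strand, and Snai2 (ENSMUSG00000022676) on the same chromosome from 14705852 to 14709385. Sox9 (ENSMUSG00000000567) lies on chromosome 11 from 112782224 to 112787760, and Sox10 (ENSMUSG00000033006) on chromosome 15 from 79154908 to 79165240, minus strand. Foxc1 (ENSMUSG00000050295) lies on chromosome 13 from 31806633 to 31812476, and Tead1 (ENSMUSG00000055320) on chromosome 7 from 112679318 to 112906807. Twist2 (ENSMUSG00000007805) lies on chromosome 1 and Zeb2 (ENSMUSG00000026872) on chromosome 2, and Zeb1 is ENSMUSG00000024238. The library kit does not mark strand, and Trp63, Tead1, Twist2, Zeb1 and Zeb2 each overlap at least 2 other annotated genes, 5 in the case of Zeb2, which include the antisense gene Zeb2os, so that reads of the overlapping parts cannot be told apart.

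The sequence upstream of Foxc1 is shown because Foxc1 was the member whose level was higher in GFP+ than in GFP- luminal cells of every unit. It covers the bases before the annotated start (RefSeq, GRCm38.p6, chr13:31806396-31806632, plus strand), and capitals mark a CCAAT box read on the opposite strand (ATTGG) and a GC box (GGGCGG).
Foxc1 promoter: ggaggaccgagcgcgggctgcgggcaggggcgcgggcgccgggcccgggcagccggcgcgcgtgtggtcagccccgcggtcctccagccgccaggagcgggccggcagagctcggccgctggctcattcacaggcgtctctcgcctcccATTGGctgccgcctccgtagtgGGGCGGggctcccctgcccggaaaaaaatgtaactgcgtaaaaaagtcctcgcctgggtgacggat
The CCAAT box (CCAAT, both strands) began at -88 and was present in 32.8% of 32851 mouse promoters of the RefSeq table, and the GC box (GGGCGG, both strands) began at -66 and was present in 30.9% of them. No match was found for the letters searched for RBPJ (TGGGAA), the DNA-binding partner of Notch, for the E-box (CAGGTG), or for TEAD (GGAATG) and SOX (ACAAAG) factors, which occurred in 20.6%, 16.4%, 12.1% and 15.8% of promoters. Promoter sequences were matched for 3 of the 9 members.

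Among GFP+ cells, the basal factors Trp63 and Snai2 had high levels in the basal and intermediate gates and low levels in the luminal gate, whereas the mean levels of Sox9, Sox10 and Foxc1 were highest in the luminal gate, differences that did not pass the adjusted test. In K5Cre mice the intermediate level exceeded the luminal one for Sox9 (604.3 against 532.3 CPM) and Foxc1 (67.52 against 45.33 CPM). Tead1 was present in all gates, and Twist2, Zeb1 and Zeb2 were found in few cells. Per kilobase of exon, the order in basal GFP+ cells was Sox9 (92.2 ± 24.1 CPM per kb, SD, n = 4 units), Snai2 (37.7 ± 13.3), Sox10 (27.8 ± 12.8), Trp63 (22.2 ± 11.8), Tead1 (8.62 ± 2.81) and Foxc1 (2.74 ± 1.27). Snai2, Sox10 and Trp63 were neighbours whose ranges over units overlapped. In luminal GFP+ cells the order was Sox9 (230.6 ± 110.1 CPM per kb, SD, n = 5 units), Sox10 (66.69 ± 21.01), Foxc1 (13.4 ± 5.51), Tead1 (5.2 ± 1.49), Snai2 (3.54 ± 4.66) and Trp63 (0.349 ± 0.47). In intermediate GFP+ cells, Sox9 had the highest mean per-kb level, at 96.3 ± 74.4 CPM per kb (SD, n = 4 units).

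**Figure D1:**
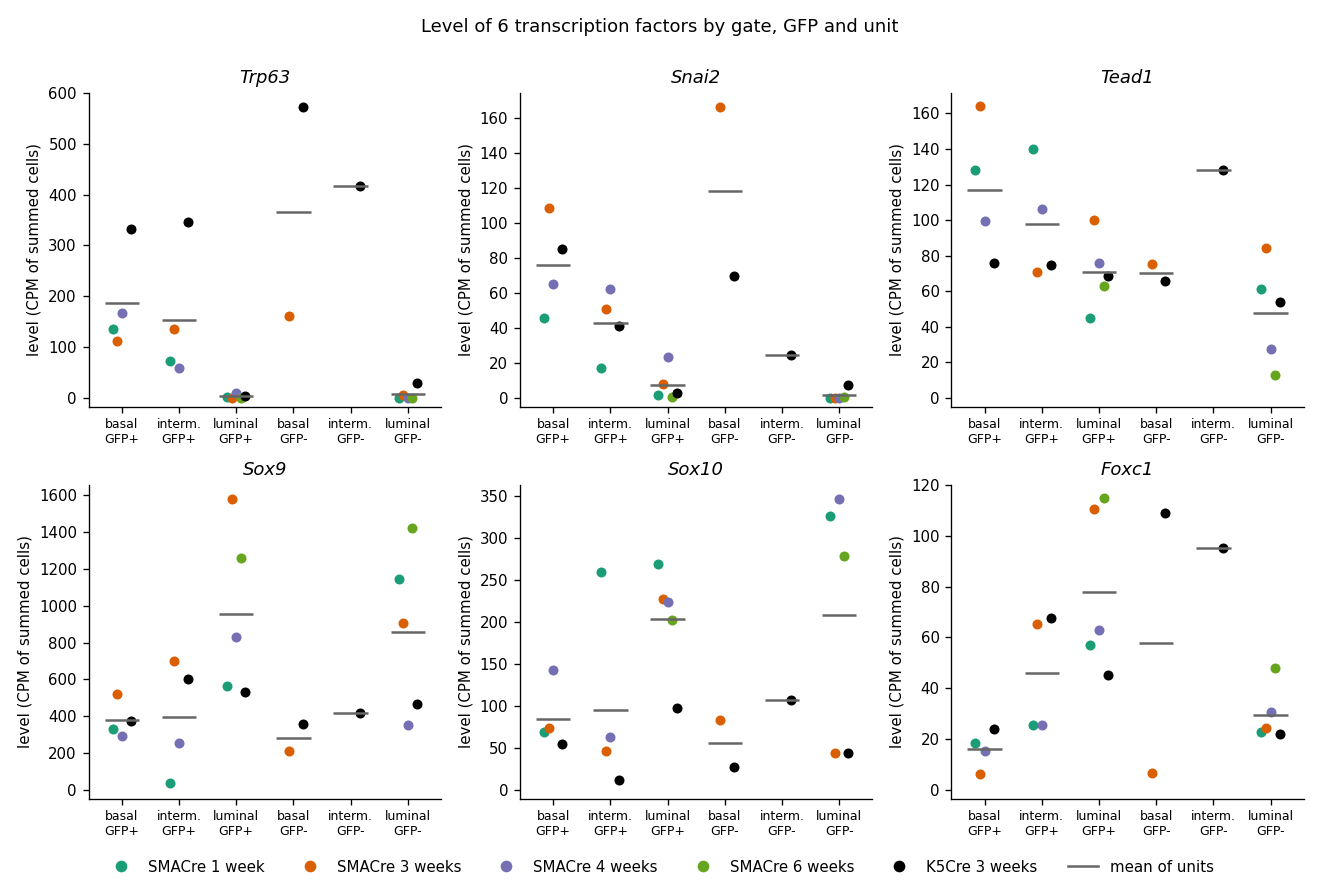
Level in CPM (linear axis) of 6 factors in each gate and GFP class; each point is a unit (Cre line at a chase time, by colour) and each bar the mean of units. Trp63 lay between 112.8 and 331.6 CPM in the basal GFP+ units and at or below 9.471 CPM in every luminal GFP+ unit.

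The comparison of luminal with basal GFP+ cells asks which of these factors differ between Notch-activated cells at the end and at the start of the passage between gates. Trp63 fell between basal and luminal GFP+ cells. Its level in basal GFP+ cells was 134.9, 112.8 and 166.7 CPM in SMACre mice at 1, 3 and 4 weeks and 331.6 CPM in K5Cre mice at 3 weeks. In luminal GFP+ cells it was 1.137, 0, 9.471 and 3.748 CPM in the same units, and 0.2946 CPM in SMACre mice at 6 weeks. The units did not overlap, which held for 10.1% of genes tested. The log2 fold change was -6.52 (SE 0.938, a fitted fold of 92, lower in 4 of 4 units) with an adjusted p of 0.02896 (edgeR quasi-likelihood test, Benjamini-Hochberg). It was the member called of the 7 tested, where 1.13% of the 13571 genes were called, 67 higher (0.494%) and 87 lower (0.641%). Without cells under 10 Epcam reads or at or over 1000 CPM of salivary markers, the adjusted p was 0.02663 (edgeR). The call was lost when K5Cre mice were left out (adjusted p = 0.08892, edgeR), when the 1-week unit was left out (0.1275), with plates as units (0.0569) and without K5Cre plate L (0.07801), while its log2 fold change stayed between -7.78 and -5.26 in all 16 alternatives.

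Snai2 was also lower in 4 of 4 units without overlap, which held for 10.1% of genes tested in either direction. Its level in basal GFP+ cells was 45.98, 108.6 and 65.26 CPM in SMACre mice at 1, 3 and 4 weeks and 85.22 CPM in K5Cre mice. In luminal GFP+ cells it was 1.364, 7.859, 23.19 and 3.034 CPM. The value of 23.19 CPM came from 2 of 51 cells, 83.33% of it from 1 cell. All luminal units lay below all basal units. The log2 fold change was -3.92 (SE 0.719) with an adjusted p of 0.06147 (edgeR), which did not pass, and it passed under 4 of 16 alternatives.

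The 3 members with higher values in the luminal gate did not pass the adjusted test. Sox9 was 332.6, 522.9, 295.3 and 373.9 CPM in the basal GFP+ units (SMACre at 1, 3 and 4 weeks, then K5Cre) and 564.1, 1579, 831.6 and 532.3 CPM in the luminal GFP+ ones, with a log2 difference of 0.98 (SE 0.274, adjusted p = 0.1764, edgeR). Sox10 was 68.91, 73.51, 142.2 and 54.31 CPM against 268.1, 227.3, 223.2 and 97.14 CPM, with a log2 difference of 1.16 (SE 0.343, adjusted p = 0.1941, edgeR). Both were higher in every one of the 4 units, a property of 24.5% of genes in either direction. The units of Sox9 did not overlap, a property of 10.1% of genes, whereas those of Sox10 did. Foxc1 was 18.37, 6.262, 15.36 and 24.07 CPM against 56.85, 110.5, 62.81 and 45.33 CPM. Its units did not overlap either (10.1% of genes), and its log2 difference was 2.02 (SE 0.613, adjusted p = 0.2046, edgeR). With DESeq2 the adjusted p for Foxc1 was 0.01836.

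Tead1 was 128.2, 164.2, 99.64 and 75.68 CPM in the basal GFP+ units and 44.8, 100.3, 75.61 and 68.77 CPM in the luminal ones. It was lower in each luminal unit, but the units overlapped, and the log2 difference was -0.80 (SE 0.325, adjusted p = 0.3569, edgeR). Zeb2 gave -4.59 (SE 3.37, adjusted p = 0.6605, edgeR), or -3.02 (adjusted p = 0.8072) without the cells of under 10 Epcam reads or high salivary markers, and Twist2 and Zeb1 had too few reads to be tested. Of the 7 members tested, 6 had an unadjusted p under 0.05, against 13.1% of all genes tested. The members were chosen with earlier results of these data known, so this count is not a test of them as a set.

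**Figure D2:**
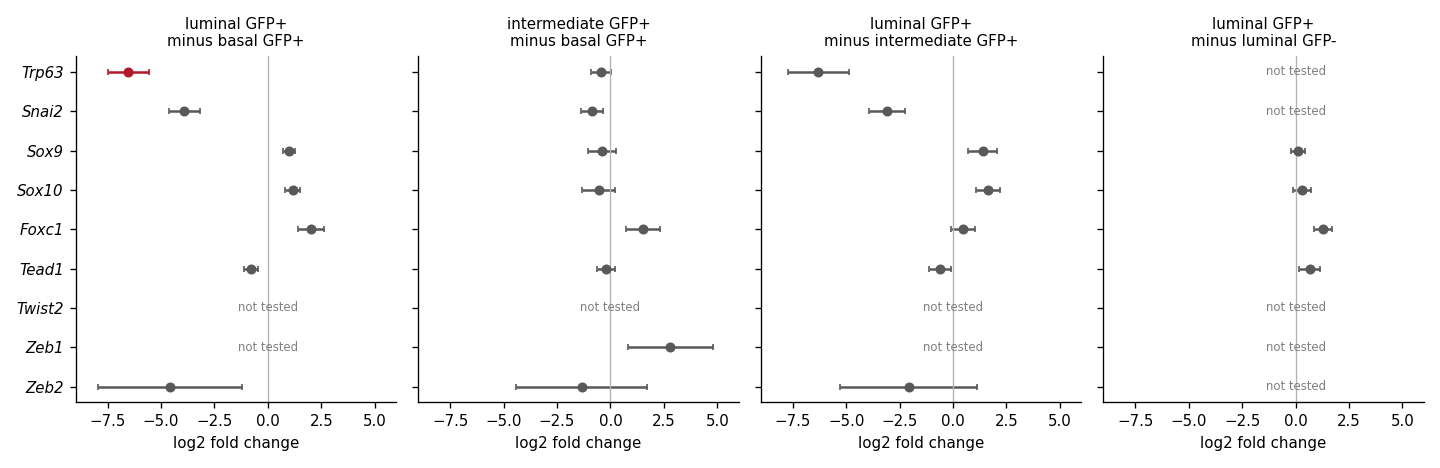
Log2 fold change of each member in the 4 comparisons, with approximate standard errors as bars; red marks an adjusted p under 0.05 (edgeR). Trp63 at -6.52 in luminal against basal GFP+ cells is the red point, and Sox9, Sox10 and Foxc1 lie above 0 in the same panel at 0.98, 1.16 and 2.02.

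Genes downstream of p63 and genes of EMT were described from lists, which were also chosen with earlier results of these data known. Over all 13571 genes tested, 0.494% rose, 0.641% fell, 51.2% had values below 0 and 13.1% had an unadjusted p under 0.05. Of 18 p63 targets tested, which include adhesion and hemidesmosome genes, 4 fell and none rose, and all 18 had values below 0, with a median log2 difference of -2.75 against -0.03 over all genes. Those that fell were Jag2 (-6.01), a Notch ligand, Col17a1 (-4.79), a hemidesmosome collagen, Fat2 (-3.33), a protocadherin, and Dst (-2.08), a cytolinker. Of 13 mesenchymal genes tested, 3 fell, Mmp2 (-9.24), a matrix metalloproteinase, Col5a1 (-9.17), a collagen chain, and Cav1 (-2.66), a caveolar coat protein, and the median was -2.67. Sums of fibroblast and endothelial markers reached higher values in the basal GFP+ units. The 7 fibroblast markers summed to 10.7 to 131.1 CPM there and 0 to 6.75 CPM in the luminal GFP+ units, where Lum was at 0. The 5 endothelial markers summed to 0.3 to 573 CPM and 0.167 to 6.48 CPM, with a read of each in both groups. The endothelial gene tested, Pecam1, was -1.14 (adjusted p = 0.948, edgeR). Other lists did not all move this way. The 5 pericyte markers summed to 24.85 to 367.7 CPM in basal and 94.14 to 265.8 CPM in luminal GFP+ units. In the Schwann list Erbb3 rose (2.32, adjusted p = 0.0319, edgeR), and the 2 immune genes tested were above 0. The fibroblast and pericyte gene Pdgfrb was -11.19 (adjusted p = 0.118, edgeR). The part of cells of other types in the result was not tested. Of 13 epithelial factors opposed to EMT, 1 rose, Elf5 (7.51), a luminal progenitor factor, with a median of 0.87. None of 16 other basal and EMT factors passed by edgeR (3 at unadjusted p under 0.05, median -0.29), where Yap1 was -1.14 (adjusted p = 0.1334) and Id4 was -2.29 (adjusted p = 0.1622). None of 20 YAP/TEAD targets passed by edgeR (7 at unadjusted p under 0.05), their median was -0.002, and Igfbp3 was -9.38 (adjusted p = 0.05691). None of 7 Notch effectors passed by edgeR (1 at unadjusted p under 0.05), and their median was 1.32. Of the gate markers, 2 of 8 basal genes fell (Cnn1, -7.01, and Acta2, -5.66) and 7 of 10 luminal genes rose, among them Aldh1a3 (10.62) and Kit (9.47).

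Intermediate GFP+ cells are those between the gates. Trp63 in intermediate GFP+ cells was 72.87, 134.5 and 58.82 CPM in SMACre mice at 1, 3 and 4 weeks and 346.9 CPM in K5Cre mice. It was higher than in basal GFP+ cells in 2 of 4 units, and the log2 difference was -0.45 (SE 0.458, adjusted p = 0.9998, edgeR). The SMACre 3-week value came mostly from plate E, of batch 3, which held no basal GFP+ cells. On plates 2 and 3, which held both gates, Trp63 was 82.4 and 61.24 CPM in intermediate against 117.9 and 112.5 CPM in basal GFP+ cells, so that it was lower on 5 of the 6 plates with both gates, K5Cre plate L being the exception. Without plate E the log2 difference was -0.79 (adjusted p = 0.9994, edgeR). Snai2 was 16.96, 50.86, 62.21 and 41.21 CPM. It was below the basal level in 4 of 4 units, a property of 11% of genes in either direction. Its log2 difference was -0.85 (SE 0.504, adjusted p = 0.9998, edgeR). The 3-week value came mostly from plate E, at 47.35 CPM. On plates 2 and 3 Snai2 was 32.34 and 106.4 CPM in intermediate against 70.17 and 111.2 CPM in basal GFP+ cells. It was 49.08 against 166.6 CPM on K5Cre plate G, and higher in intermediate cells on plate L (34.08 against 28.76 CPM). Foxc1 was 25.66, 65.44, 25.62 and 67.52 CPM. These values were above the basal GFP+ level in 4 of 4 units, a property of 11% of genes in either direction, and the units did not overlap, a property of 2.23% of genes. The log2 difference was 1.52 (SE 0.814, adjusted p = 0.9998, edgeR), and 1.53 without plate E.

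Sox9 in intermediate GFP+ cells was 37.12, 697.9, 253.5 and 604.3 CPM, and the 1-week value rested on 4 cells. Sox10 was 258.9, 45.76, 63.43 and 12.01 CPM, and the 1-week value rested on 1 cell with reads. Tead1 was 139.8, 70.68, 106.1 and 74.68 CPM. For these 3 members the intermediate and basal units overlapped, with log2 differences of -0.39 (SE 0.653), -0.56 (SE 0.766) and -0.19 (SE 0.422), each with an adjusted p of 0.9998 (edgeR). In this comparison edgeR called 0 of 13780 genes (0%), 1.29% had an unadjusted p under 0.05, none of them a member, and DESeq2 called 90 genes, none of them a member. No gene of any list passed by edgeR. The median log2 difference was -0.499 for the p63 targets and -0.743 for the mesenchymal genes, against -0.187 over all genes, and the epithelial factors had 0.648, where Ehf, an epithelial ETS factor, was 3.66. YAP/TEAD targets had -0.261, with Ccn2 at -3.14, and the Notch effectors -0.22.

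Between intermediate and luminal GFP+ cells, edgeR called 0 of 13386 genes (0%), 5.31% had an unadjusted p under 0.05, among them Trp63, Snai2 and Sox10, and DESeq2 called 680. Trp63 was lower in luminal GFP+ cells in 4 of 4 units without overlap, a property of 7.47% of genes, with a log2 difference of -6.30 (SE 1.42, adjusted p = 0.4594, edgeR). Snai2 was lower in 4 of 4 units, a property of 20% of genes in either direction, and its units overlapped. Its log2 difference was -3.07 (SE 0.839, adjusted p = 0.6203, edgeR). DESeq2 called both, at an adjusted p of 3.975e-05 for Trp63 and 0.004661 for Snai2. It also called Zeb1 (0.005302, DESeq2), which edgeR's filter left out and which was at 0 in all luminal GFP+ units. The highest intermediate Zeb1 unit, 164.5 CPM at 1 week, came from 1 cell with 2 Epcam reads. Without cells under 10 Epcam reads or of high salivary markers, the intermediate Zeb1 levels were 0, 4.901, 0 and 1.901 CPM. DESeq2 was not run without these cells. In luminal GFP+ cells Sox10 exceeded its intermediate level in 4 of 4 units, a property of 20% of genes in either direction (1.63, SE 0.571, adjusted p = 0.7923, edgeR), Sox9 in 3 of 4 (1.39, SE 0.680) and Foxc1 in 3 of 4 (0.47, SE 0.569), and their units overlapped. Tead1 differed by -0.62 (SE 0.503). All 18 p63 targets had values below 0, as had 45% of all genes (median -1.57, against 0.13 over all genes), with Krt5 at -8.20 and Dst at -1.99, and none passed.

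Luminal GFP+ cells were set against the luminal GFP- cells of the same units, which asks whether cells that reached the luminal gate with active Notch1 match the resident luminal cells. Foxc1 had the smallest p of the 4 members tested. In luminal GFP- cells it was 22.72, 24.21, 30.82 and 48.13 CPM in SMACre mice at 1, 3, 4 and 6 weeks and 21.83 CPM in K5Cre mice, against 56.85, 110.5, 62.81, 114.7 and 45.33 CPM in GFP+ cells. Every GFP+ value was above the GFP- value of its unit, a property of 8.01% of genes in either direction, while the ranges overlapped (1.22% of genes had units without overlap), since the lowest GFP+ unit (45.33) was below the highest GFP- unit (48.13). The log2 difference was 1.28 (SE 0.404, unadjusted p = 0.01113 and adjusted p = 0.9987, edgeR) and lay between 0.98 and 2.06 over 17 alternatives, with an adjusted p of 0.03285 by DESeq2. Here edgeR called 0 of 11599 genes (0%), 4.45% had an unadjusted p under 0.05, Foxc1 among the 4 members tested, and DESeq2 called 351. In batches 1 and 2 the GFP- luminal cells were annotated as sorted for ER-negative cells, and in batch 3 they were not. The SMACre 3-week unit mixes plates, since its GFP+ cells came from plates 2 and 3 and 5 of its 8 GFP- cells from plate E of batch 3. On plate 3, which held both, Foxc1 was 127.3 CPM in 11 GFP+ cells and 83.91 CPM in 3 GFP- cells, and without plate E the log2 difference was 0.98 (adjusted p = 0.9974, edgeR).

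Sox9 was 1146, 904.7, 353, 1421 and 464.5 CPM in the luminal GFP- units, and 564.1, 1579, 831.6, 1260 and 532.3 CPM in the GFP+ ones. Sox10 was 325.8, 44.07, 346.2, 277.6 and 44.14 CPM in GFP- cells, against 268.1, 227.3, 223.2, 201.6 and 97.14 CPM in GFP+ cells. On plate 3 alone Sox10 was 262.5 CPM in GFP+ and 243.2 CPM in GFP- cells, and the low GFP- value at 3 weeks came from plate E (0.3125 CPM). The difference changed sign between units for both members, and the log2 differences were 0.11 (SE 0.315) and 0.31 (SE 0.419). Tead1 was 61.35, 84.16, 27.62, 12.91 and 53.87 CPM in GFP- cells, below the GFP+ level in 4 of 5 units (0.65, SE 0.508). Trp63 in luminal GFP- cells was 0 CPM in SMACre mice at 1, 4 and 6 weeks, 5.38 CPM at 3 weeks and 28.82 CPM in K5Cre mice, 97.89% of the last from 1 cell. On SMACre plate 3 it was 28.45 CPM, from 1 of 3 cells. The 7 Notch effectors tested had values above 0, as had 60.1% of all genes, with a median of 0.724 against 0.196 over all genes, and Hey1, a canonical Notch target, was 1.23. Of 16 p63 targets, 12 were above 0 (75%, median 0.945), and none of these genes passed by edgeR (adjusted p = 0.9987 for each gene named).

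**Figure D3:**
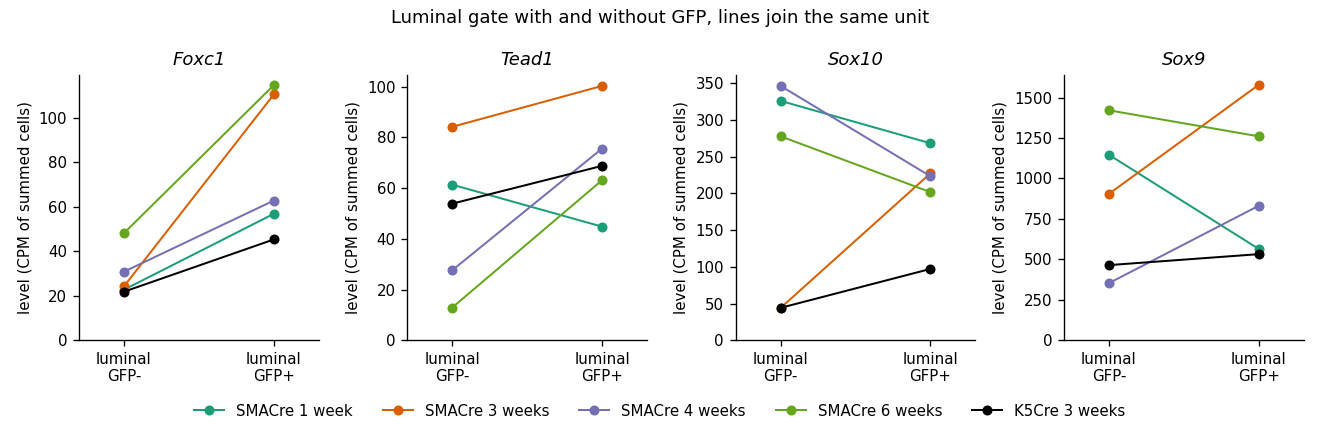
Level in CPM of Foxc1, Tead1, Sox10 and Sox9 in luminal GFP- and luminal GFP+ cells; lines join the values of the same unit (Cre line at a chase time). All 5 lines rise for Foxc1, 4 of 5 for Tead1, and Sox10 and Sox9 go in both directions.

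Detection in single cells was read by gate. After thinning each cell to 100000 reads, Trp63 was detected (at least 1 read) in 71 of 100 basal GFP+ cells (71%, 95% exact Clopper-Pearson interval 61.1 to 79.6), 75.8% of intermediate GFP+ cells (69.6 to 81.3) and 8 of 120 luminal GFP+ cells (6.67%, 2.92 to 12.7). In luminal GFP- cells, which should lack it, the share was 2 of 39 (5.13%, 0.627 to 17.3). Intervals here and below cover counting error only, and the median depth before thinning was 496102 reads in basal, 1391198 in intermediate, 361346 in luminal GFP+ and 632006 in luminal GFP- cells. Without thinning the shares for Trp63 were 78%, 82.1%, 7.5% and 15.4%.

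Snai2 was detected in 50% of basal, 41.3% of intermediate and 7.5% of luminal GFP+ cells. Foxc1 was detected in 26 of 100 basal GFP+ cells (26%, 17.7 to 35.7), 57.8% of intermediate GFP+ cells (51.1 to 64.4) and 74 of 120 luminal GFP+ cells (61.7%, 52.4 to 70.4). The basal interval lay below the others, as it did not in K5Cre mice alone, where 6 of 11 basal GFP+ cells held Foxc1. Most intermediate GFP+ cells were of batch 3 and most basal ones of batches 1 and 2. On shared plates, basal and intermediate counts were 11 of 50 and 3 of 4 (SMACre plate 1) and 0 of 2 and 1 of 3 (plate 2). They were 6 of 21 and 6 of 13 (plate 3) and 3 of 16 and 5 of 19 (plate 4). K5Cre plates gave 3 of 5 and 43 of 63 (G) and 3 of 6 and 33 of 61 (L). Among luminal GFP- cells 14 of 39 held Foxc1 (35.9%, 21.2 to 52.8). Sox10 was detected in 51% of basal, 28.3% of intermediate and 71.7% of luminal GFP+ cells, where the pooled intermediate share (22.4 to 34.6) rested on the K5Cre cells. By Cre line, Sox10 was detected in 40.4% of intermediate (30.7 to 50.7) and 52.8% of basal GFP+ cells (41.9 to 63.5) in SMACre mice, whose intervals overlapped, and in 18.5% (12.1 to 26.5) and 36.4% (10.9 to 69.2) in K5Cre mice. Sox9 was detected in 90%, 98.2% and 98.3%, and Tead1 in 79%, 78% and 75.8% of cells.

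**Figure D4:**
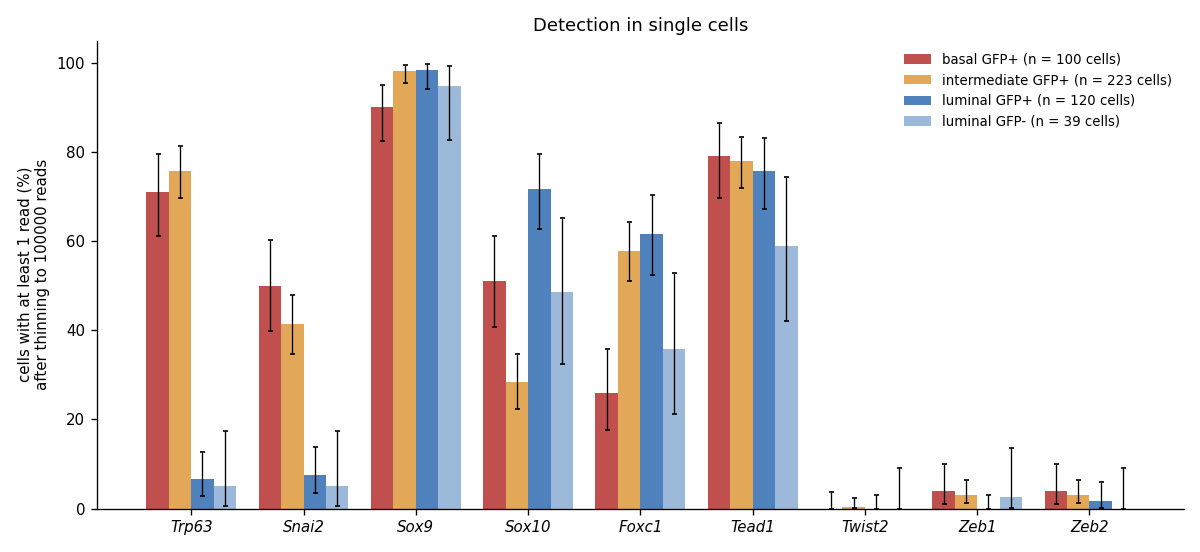
Share of cells (%) with at least 1 read of each member after thinning to 100000 reads, by gate and GFP; bars are exact 95% intervals, for counting error only. Trp63 shares are 71%, 75.8% and 6.67% in basal, intermediate and luminal GFP+ cells, and Foxc1 shares are 26%, 57.8% and 61.7%.

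Factors were also read together with keratins and with each other in the same cell. Of the intermediate GFP+ cells with Trp63, 97% held the basal keratin Krt14, 76.3% the basal keratin Krt5 and 76.3% the luminal keratin Krt8, close to the shares of 95.1%, 77.1% and 79.4% over all intermediate GFP+ cells. Elf5 was held by 10 of them and Kit by 12. Krt8 was also detected in 61 of the 71 basal GFP+ cells with Trp63 (85.9%, against 81% of all basal GFP+ cells). Trp63 and Foxc1 were found together in 20 of 100 basal, 47.1% of intermediate and 5 of 120 luminal GFP+ cells. These pools differ in batch, as described for Foxc1 above. Of the intermediate GFP+ cells with Trp63, 62.1% held Foxc1, close to 57.8% of all intermediate GFP+ cells. Sox10 and Foxc1 were found together in 10 of 100 basal, 33 intermediate (14.8%) and 57 of 120 luminal GFP+ cells (47.5%). Of luminal GFP+ cells with Sox10, 66.3% held Foxc1, against 61.7% of all luminal GFP+ cells. In basal GFP+ cells these shares were 19.6% and 26%. Of the 74 luminal GFP+ cells with Foxc1, 70 held Kit (94.6%, against 86.7% of all luminal GFP+ cells) and 54 held Elf5 (73%, against 69.2%). Trp63 and Snai2 shared 38 of 100 basal, 72 intermediate (32.3%) and 2 of 120 luminal GFP+ cells. Of basal GFP+ cells with Trp63, 53.5% held Snai2, close to 50% of all basal GFP+ cells. A median of 4 members was detected in basal and intermediate GFP+ cells and of 3 in luminal GFP+ cells.

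The EMT factors Twist2, Zeb1 and Zeb2 were rare in the kept cells. Twist2 was detected in 0 of 100 basal GFP+ cells, which allows up to 3.0% of cells with a read at this depth, in 1 intermediate GFP+ cell (0.448%) and in 0 of 120 luminal GFP+ cells, which allows up to 2.5%. Zeb1 was detected in 4 of 100 basal, 7 intermediate (3.14%) and 0 of 120 luminal GFP+ cells (up to 2.5%), and Zeb2 in 4, 7 and 2 cells of the same groups. Zeb1 was 26.26, 0.3854, 2.13 and 0 CPM in the basal GFP+ units and 164.5, 4.877, 0 and 1.899 CPM in the intermediate GFP+ ones, so that both 1-week units were the highest. In the basal GFP+ cells at 1 week, a cell with 2 Epcam reads, 0 Krt14 reads and 1093 CPM of Zeb1 was the largest contributor, and 2 others with 2 Epcam reads held 1024 and 4583 reads of the endothelial gene Pecam1. The intermediate GFP+ cell with 359 Zeb1 reads held 2 Epcam reads and 1100 Pecam1 reads. A cell with 505.3 CPM of Zeb2 held 3462 reads of the pericyte gene Rgs5. The endothelial list summed to at most 573 CPM in a basal GFP+ unit and 1100 CPM in an intermediate GFP+ unit, and up to 6.48 CPM in the luminal GFP+ units. With cells under 10 Epcam reads removed, Zeb1 at 1 week was 0.04565 CPM in basal GFP+ and 0 CPM in intermediate GFP+ cells, and Zeb2 was 0.04565 and 0 CPM. What the cells with 2 Epcam reads are was not tested. Zeb1 gave a log2 difference of 2.80 (SE 2.00, adjusted p = 0.9998, edgeR) between intermediate and basal GFP+ cells, and had too few reads to be tested without the cells of under 10 Epcam reads. Zeb2 gave -1.34 (SE 3.07) with these cells and -2.71 (SE 3.74) without them.

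Chase times were 1 unit each, so values are given without a test, and chase cannot be told apart from plate. In basal GFP+ cells of SMACre mice, Trp63 was 134.9, 112.8 and 166.7 CPM at 1, 3 and 4 weeks, and in luminal GFP+ cells Foxc1 was 56.85, 110.5, 62.81 and 114.7 CPM at 1, 3, 4 and 6 weeks. Neither rose or fell steadily with chase. Sox10 in luminal GFP+ cells was 268.1, 227.3, 223.2 and 201.6 CPM at these times, in descending order. The 1-week value rested on 5 of 8 cells, with 55.81% of its reads from 1 cell.

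Cre lines were compared at 3 weeks in the intermediate gate by plate. Trp63 in intermediate GFP+ cells was 82.4, 61.24 and 140.3 CPM on SMACre plates 2, 3 and E and 286.6 and 401.6 CPM on K5Cre plates G and L, and the lines did not overlap, a property of 19.1% of 13780 genes on these plates. Sox10 was 288.8, 83.57 and 39.53 CPM on the SMACre plates and 16.24 and 8.183 CPM on the K5Cre plates, also without overlap, with 3 cells on the SMACre plate of the highest value. Foxc1 was 76.24, 83.06 and 64.08 against 67.84 and 67.23 CPM, and its plates overlapped. The K5Cre plates and SMACre plate E were in batch 3, and the other SMACre plates were in batches 1 and 2, with 3 cells on plate 2, 13 on plate 3 and 60 on plate E. Within batch 3, Trp63 was 140.3 CPM on plate E and 286.6 and 401.6 CPM on the K5Cre plates.

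In the basal gate of K5Cre mice, GFP+ cells were set against GFP- cells of the same plates. Trp63 was 497.4 CPM on plate G and 216.7 CPM on plate L in GFP+ cells and 457.4 and 664.5 CPM in GFP- cells. Foxc1 was 54.23 and 3.151 CPM in GFP+ cells against 36.13 and 167.3 CPM in GFP- cells. Snai2 was 166.6 and 28.76 CPM against 79.26 and 62.35 CPM. For each of these 3 members the sign of the difference changed between the plates, which held 5 or 6 cells a group. Basal GFP- cells of SMACre mice, 6 cells at 3 weeks, held Trp63 at 160.6 CPM and Foxc1 at 6.836 CPM. Intermediate GFP- cells, 12 cells of K5Cre mice, held Trp63 at 417.2 CPM, Foxc1 at 95.34 CPM, Sox9 at 417.7 CPM and Tead1 at 128.4 CPM.

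Genes whose level followed each member most closely were listed over the 21 sums of at least 3 cells, by Pearson correlation of log2(CPM + 1) among 9155 genes with a mean of at least 10 CPM. For Trp63 they were Moxd1 (0.953), Cdh3 (0.932), which encodes P-cadherin and is itself a p63 target on the list, and Dpysl3 (0.925). For Snai2 they were Cxcl14 (0.95), Acta2 (0.935), which encodes smooth muscle actin, and Fstl1 (0.935). For Sox9 they were Ptpn23 (0.899), Casz1 (0.898) and Creb5 (0.888), and for Sox10 Apobec3 (0.835), Aes (0.830) and Cmtm7 (0.804). For Tead1 they were Arhgap17 (0.865), Cnn2 (0.843) and Nacc2 (0.835), and for Foxc1 Grhl1 (0.759), an epithelial factor, Ptp4a2 (0.733) and Dact2 (0.706). For Zeb1 they were Neurl1b (0.845), Gm38036 (0.828) and Rasa4 (0.828), which rest on the few cells above. The sums share plates and mice, and differ in depth.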

How the data were processed

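The authors trimmed reads with Trim Galore 0.6.5, aligned them to GRCm38 with STAR 2.7.7a and counted them per gene with HTSeq 0.13.5, per the labels and the study's methods, and the deposited values are raw counts. Batches 1 and 2 were single-end and batch 3 was paired-end. Of 840 deposited cells, a 96-cell repeat run was left out. The cell filters required a mitochondrial share below 10%, more than 1400 detected genes and more than 100000 reads, then 2 or more reads of Epcam and no more than 1 of Dcpp1 (a salivary gene): 181 cells were removed by Dcpp1 and 19 by Epcam. Gate and GFP came from the labels, although the study's appendix lists the intermediate and luminal numbers of SMACre plates 1 to 4 the other way round, and chase and plate from the deposited annotation, which gives the chase of K5Cre plate L as 3 weeks in its details and 6 weeks in the sample name. Counts were summed per group and unit with at least 3 cells of both groups and tested with edgeR 4.0.16 (R 4.3.3; filterByExpr, TMM, quasi-likelihood test, unit as a block, adjusted p under 0.05). The SE is the log2 fold change divided by the root of F. DESeq2 1.42.0 and other settings were alternatives. Detection used at least 1 read after thinning to 100000 reads. Scripts were tested on simulated data. Members and lists were chosen with earlier results of these data known. Named were all members and, per list, up to 4 called genes by size of change, or the 2 of smallest p where none passed. P-values measure the spread between units, and it is not given whether units hold separate mice.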

Additional observations from a re-analysis of the deposited data

Results flagged for a closer look

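Of 31 groups of 4 or 5 units tested for a unit far from the others, 6 were marked. The cutoffs mark about 1 in 20 groups of normally distributed values. That rate is not known to hold here, since many levels are near 0 and a group with 1 unit above 0 is always marked. Zeb1 at 1 week was 26.26 CPM in basal GFP+ cells (next 2.13) and 164.5 CPM in intermediate GFP+ cells (next 4.877), and with cells under 10 Epcam reads removed these values were 0.04565 and 0 CPM. In luminal GFP- cells of K5Cre mice, Trp63 was 28.82 CPM (next 5.38), Snai2 7.235 CPM (next 0.5869) and Zeb1 1.398 CPM (all other units 0). For each gene 1 of the 12 cells gave most reads, 97.89% for Trp63, 99.16% for Snai2 and 100% for Zeb1. Zeb2 was 2.974 CPM in luminal GFP+ cells of K5Cre mice (next 0.762).

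Effects pointed in opposite directions in the Cre lines for 2 members, and these differences were not tested. Foxc1 in luminal GFP+ minus intermediate GFP+ cells averaged 37.54 CPM on 3 SMACre plates and -24.01 CPM on 2 K5Cre plates. Zeb2 in luminal GFP+ minus basal GFP+ cells averaged -9.604 CPM on 3 SMACre plates and 2.659 CPM on 2 K5Cre plates. Without cells under 10 Epcam reads or of high salivary markers the SMACre mean was -5.411 CPM and the K5Cre mean the same. The Zeb2 level in K5Cre luminal GFP+ cells rested on 50 reads, 98% of them from 1 cell. On SMACre plate 1 the difference without those cells was -0.04565 CPM, from 1 read.

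The 19 cells removed for under 2 Epcam reads, which no comparison used, held 128.01 CPM of Zeb1 and 413 CPM of Zeb2, against 4.66 and 2.54 CPM in the kept cells. They also held Pecam1, an endothelial gene, at 499 CPM.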

How the results depend on the processing

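Shares of tested genes called moved as follows. In luminal against basal GFP+ cells, where 1.13% were called, the share was 6.47% with DESeq2 (1907 genes), 3.57% without a filter on low counts (1054 genes), 0.562% with plates as units, 3.53% with cells thinned to 100000 reads and 0.613% without K5Cre plate L. Leaving out each unit gave 0.247% (without SMACre 1 week) to 0.687% (without K5Cre 3 weeks). Members called there numbered 3 with DESeq2, 2 without the filter on low counts, 2 without the Epcam and Dcpp1 filters, 2 with thinned cells, 0 with plates as units, 0 without plate L and 0 to 2 on leaving out each unit. In intermediate against basal GFP+ cells, DESeq2 called 0.259%, RLE size factors 0.00726% and no filter 0.0893%. In luminal against intermediate GFP+ cells, DESeq2 called 1.97% and 3 members (Trp63, Snai2 and Zeb1), RLE size factors 0.0149%, no filter 0.738% and 2 members, no Epcam and Dcpp1 filters 0.0204%, thinned cells 0.0209%, plate L left out 0.0323%, the stricter Epcam and salivary filter 0.00758%, and leaving out each unit 0 to 0.0198%. In luminal GFP+ against GFP- cells, DESeq2 called 1.24% and 1 member, no filter 0.387%, and leaving out each unit 0 to 0.0086%. Leaving out plate L or E and the stricter filter were chosen after seeing the data.

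Without the replicate block, 1.77% of genes were called in luminal against basal GFP+ cells and 0.0672% in luminal against intermediate GFP+ cells, and Sox9 (0.16) and Sox10 (0.27) changed sign in intermediate against basal GFP+ cells, as did Sox10 (-0.0074) in luminal GFP+ against GFP- cells. The units pair groups because they are the same Cre line and chase.

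Signs also reversed for differences of which none was called. In intermediate against basal GFP+ cells, leaving out each unit gave log2 differences of -1.28 to 0.067 for Sox10, -0.82 to 0.36 for Sox9, -0.32 to 0.062 for Tead1 and -3.10 to 0.49 for Zeb2, no Epcam and Dcpp1 filters gave Tead1 0.033, and plate L left out gave Sox10 0.30. In luminal GFP+ against GFP- cells, leaving out each unit gave -0.064 to 0.59 for Sox10 and -0.14 to 0.36 for Sox9, Cre line, chase and batch as units gave Sox9 -0.0017 and Sox10 -0.070, and plate E left out gave Sox9 -0.020 and Sox10 -0.10. The cause was not tested. Of the detection shares recomputed, 31 moved outside their interval. Few units and few cells per unit limit all tests.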

Other observations

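The repeat run of the SMACre 6-week plate, left out above, was read with the same filters. It kept 67 luminal GFP+ cells against 37 in the first run. Foxc1 was 112.4 against 114.7 CPM, Sox9 1382 against 1260 CPM, Sox10 217.1 against 201.6 CPM and Tead1 59.94 against 63.14 CPM. Zeb1 was 1.401 CPM in the repeat run and 0 in the first.

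The cells removed for more than 1 Dcpp1 read held Sox9 at 811 CPM, Sox10 at 210.1 CPM, Foxc1 at 88.97 CPM, Snai2 at 57.2 CPM and Trp63 at 50.9 CPM, and Twist2 had no read in them.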
